A study of Mus musculus with 10 samples.

Results

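The messenger RNA of 10 amino acid and peptide transporters was followed in crypts of the mouse jejunum with and without deletion of Arid3a. The 10 genes were taken from a fixed list of symbols and compared between the genotypes, and all 10 were among the 14719 genes tested of the 54838 that the files hold. Of these, 7 belong to the absorptive route through the enterocyte (Slc15a1, Slc6a19, Slc6a20a, Slc7a9, Slc3a1, Slc7a7 and Slc7a8), and 3 are linked to growth (Slc3a2, Slc7a5 and Slc1a5), meaning that dividing cells of many tissues use them to take up amino acids. Measured values played no part in the rule, but the list was drawn up with earlier results of these libraries known.

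Dietary protein reaches the small intestine as peptides and free amino acids, which enterocytes take up through carriers in the apical brush border and release to the blood through carriers in the basolateral membrane. Several of these carriers are heterodimers, in which a heavy chain brings a light chain to the membrane and the light chain moves the substrate. Dividing crypt cells also need amino acids, and their uptake of leucine and glutamine feeds biosynthesis and mTORC1, the kinase complex that couples nutrients to growth. Mature enterocytes sit mainly on the villus, and stem and progenitor cells in the crypt.

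RNA came from 5 WT and 5 Arid3a cKO animals, with 1 library per animal. In the conditional knockout (cKO) animals, which the labels call KO, tamoxifen activates a Cre recombinase driven by the Villin promoter, which deletes the floxed Arid3a gene, a DNA-binding regulator of transcription, in intestinal epithelium only, so that immune and stromal cells keep it. Animals of both genotypes were given tamoxifen on 3 days in a row and were killed 1 month after the first injection. Whether the WT animals carried the Cre or floxed alleles, and the age of the animals, are not given in the sources used here. Villi were scraped off a stretch of jejunum before the crypts were released, and polyadenylated RNA was sequenced.

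The libraries held 27050455 to 28152743 counts in WT and 28314069 to 31053622 in cKO animals, so that a gene at a level of 1 CPM (the share of a gene in the counts of its library, scaled by edgeR) rests on 26 to 30 counts, while each transporter had between 300 and 8088 counts in every library. Arid3a itself was counted 55 to 81 times in WT and 9 to 31 times in cKO libraries and fell by 1.84 on the log2 scale (SE 0.316, adjusted p = 0.00204). This and every other adjusted p here comes from the quasi-likelihood test of edgeR, with the Benjamini-Hochberg adjustment made over all genes tested. Crypt markers were present in all libraries, with a summed level of the 6 stem and progenitor markers of 5272 to 8330 CPM in WT and 4126 to 5966 CPM in cKO animals. WT replicates 3 and 4 lay farthest from the cKO libraries, at a mean distance over all genes tested of 0.371 and 0.434 log2 units, against 0.258 to 0.368 for the other WT libraries. The identifiers and library numbers in the sample descriptions fell into separate series for the genotypes, and what they stand for is not given in the sources used here, so any difference that goes with them and genotype cannot be told apart.

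All 7 absorptive transporters were higher in cKO crypts, with log2 fold changes from 0.58 to 2.03 and a median of 1.21. The 3 growth-linked transporters split, since Slc3a2 rose by 0.51 while Slc7a5 fell by 0.81 and Slc1a5 fell by 0.64. Thus all 10 passed the threshold of 0.05, where 28.3% of all genes tested did (15.6% higher and 12.7% lower), and the median log2 fold change of all genes tested was −0.03. In CPM the genotypes did not overlap for 6 absorptive transporters, all higher in cKO, and for Slc7a5 and Slc1a5, which were lower, whereas 19.6% of all genes stood apart in this way (12.0% higher and 7.62% lower). These directions are those of scaling by the whole transcriptome. When libraries are scaled to 8 enterocyte markers, 5 of the directions turn, and so do those of 3 of the markers themselves, as given below. In tissue RNA, fewer or more cells of a type and less or more RNA per cell cannot be told apart.

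**Figure D1:**
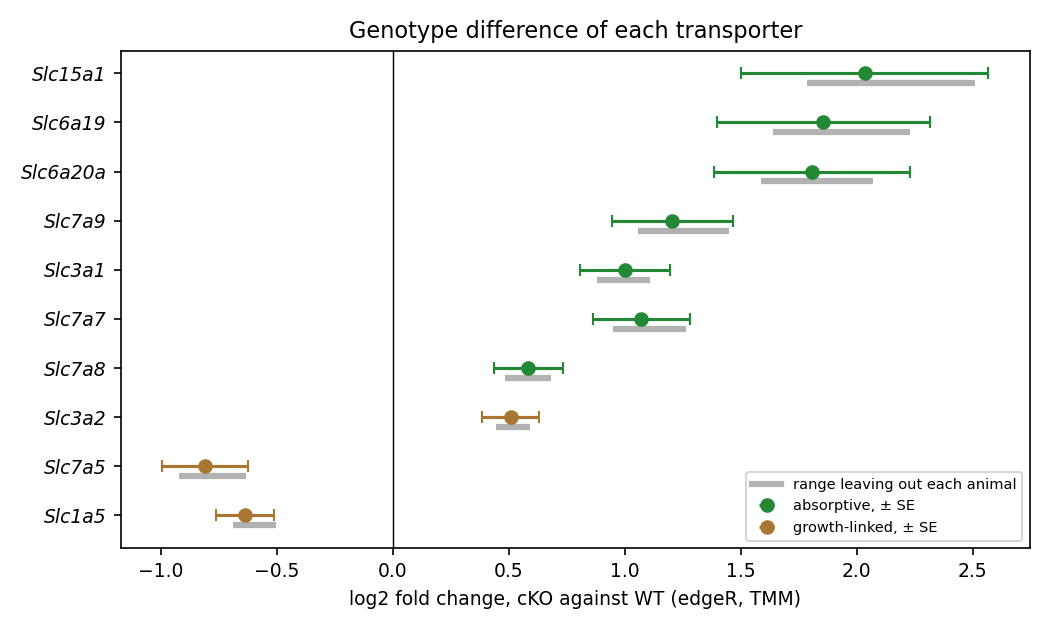
Points are the log2 fold change of each transporter, cKO against WT (edgeR, TMM scaling, 5 animals per genotype), with bars of 1 SE, and grey bars are the range when each animal is left out. The 7 absorptive transporters lie between 0.58 and 2.03, Slc3a2 at 0.51, and Slc7a5 and Slc1a5 below 0, while with another scaling, to enterocyte markers, Slc7a9, Slc3a1, Slc7a7, Slc7a8 and Slc3a2 turn negative.

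Because the absorptive genes moved together, the 250 bases before RefSeq transcript starts of the transporters were searched for recognition motifs of enterocyte regulators, HNF1, HNF4 and CDX2, and of the amino acid response element that ATF4 binds. RefSeq promoters of GRCm38.p6 were used for 8 of the 10 transporters, with 13 windows in all. No promoter was at hand for Slc7a5 and Slc1a5, the 2 transporters that fell, so they were not searched. Some of these starts lie inside the gene as placed by GENCODE, at 12229 bases from its 5′ end for Slc6a19, 9472 for Slc3a2 and 296 and 383 for the 2 starts of Slc7a9, and the sequence before the GENCODE ends of these 3 genes was not searched. The HNF1 core TAATNATTA, read on both strands, stood in Slc7a9 and Slc7a8 and in 0.588% of all 32851 promoters, and the HNF4 motif CAAAGTCCA stood in Slc3a1 and in 0.384% of promoters. All shares here count single promoters, whereas the transporters are counted as genes, some of which have several windows. The CDX2 motif TTTATNAC (3.09% of promoters) and the amino acid response element TGATGNAAT (0.816%) were found in none of the 8, which says only that these letters are not in these windows. A match describes the sequence and not a bound site. The stretches below hold the 3 matches, 5′ to 3′ on the strand of the gene, with the motif in capitals. Those of Slc7a8 and Slc3a1 lie before the gene as given by GENCODE. Whether the stretch of Slc7a9 lies in an annotated exon was not tested. For Slc7a9 the match ends 71 and 158 bases before the 2 RefSeq starts (chr7:35449003-35449031, plus strand), in a stretch that begins 207 bases inside the gene as given by GENCODE. For Slc7a8 it ends 155 bases before the RefSeq start (chr14:54781947-54782136, minus strand), and for Slc3a1 31 bases before it (chr17:85028097-85028346, plus strand).
Slc7a9: ggtgggtgttTAATAATTAcctctgttga
Slc7a8: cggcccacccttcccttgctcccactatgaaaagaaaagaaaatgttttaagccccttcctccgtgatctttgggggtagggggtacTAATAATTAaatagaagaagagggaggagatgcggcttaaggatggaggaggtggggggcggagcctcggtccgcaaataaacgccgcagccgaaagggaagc
Slc3a1: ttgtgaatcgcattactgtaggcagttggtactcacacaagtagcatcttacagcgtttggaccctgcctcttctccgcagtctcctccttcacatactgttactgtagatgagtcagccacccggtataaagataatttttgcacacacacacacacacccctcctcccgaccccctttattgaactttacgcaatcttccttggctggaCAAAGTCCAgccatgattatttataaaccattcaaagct

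The 3 largest differences among the transporters were those of apical carriers. Slc15a1 encodes PEPT1, the proton-coupled carrier of small peptides, and lies on chromosome 14 from 121459621 to 121505252 (GRCm38). Its level in TPM (transcript counts per length, scaled to the same sum in each library) was 23.5, 34.6, 8.64, 4.61 and 12.0 in WT replicates 1 to 5 and 55.6, 53.8, 39.7, 85.3 and 90.0 in cKO replicates 1 to 5. Every cKO animal lay above every WT animal, with WT replicate 2 nearest to the cKO range and WT replicate 4 the lowest. Slc15a1 rose by 2.03 on the log2 scale (SE 0.533, adjusted p = 0.0212), from a mean of 39.5 ± 29.5 CPM (SD, n = 5, as for all such values) to 162 ± 52.6 CPM. Without cKO replicate 5 the log2 fold change was 1.86 with an adjusted p of 0.0540, and without any other single animal the adjusted p ran from 0.00664 to 0.0491.

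Slc6a19 encodes the sodium-coupled carrier of neutral amino acids of the brush border (chromosome 13, 73679745 to 73704865). It stood at 24.4, 31.9, 11.7, 6.40 and 11.1 TPM in the WT animals and at 49.95, 48.2, 37.1, 94.2 and 69.6 TPM in the cKO animals. As for Slc15a1, WT replicates 2 and 1 were the highest and replicate 4 the lowest of the WT animals, and the genotypes did not overlap. Slc6a19 rose by 1.86 on the log2 scale (SE 0.458, adjusted p = 0.0167), from 48.8 ± 31.1 to 177 ± 60.4 CPM.

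Slc6a20a encodes a carrier of proline and other imino acids (chromosome 9, 123634770 to 123678885). The WT animals had 31.3, 28.4, 13.7, 6.37 and 11.2 TPM, and the cKO animals had 50.3, 44.1, 46.0, 73.9 and 75.4 TPM. Here too the lowest cKO animal lay above the highest WT animal. The log2 fold change was 1.81 (SE 0.424, adjusted p = 0.0137), from 35.8 ± 21.3 to 125 ± 31.6 CPM. Its close paralog Slc6a20b was scarce and rose by 1.93 (adjusted p = 0.00886), from 0.966 ± 0.449 to 3.70 ± 2.22 CPM, and the division of reads between the pair by RSEM leaves the value of Slc6a20b uncertain.

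**Figure D2:**
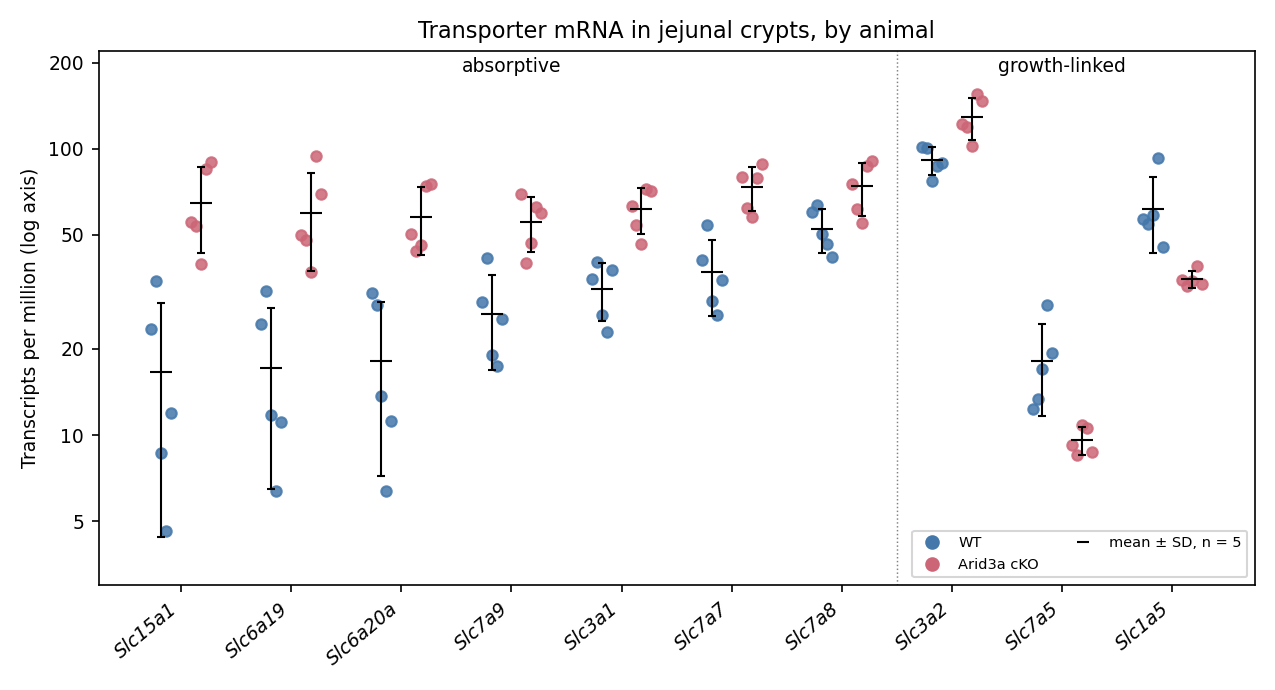
TPM of each transporter (log axis) in the 5 WT and 5 Arid3a cKO animals, with mean and SD. The cKO points lie above the WT points for Slc15a1, Slc6a19, Slc6a20a, Slc3a1, Slc7a7 and Slc3a2, below them for Slc7a5 and Slc1a5, and overlap them for Slc7a9 and Slc7a8 in this unit.

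The apical exchanger of cystine and dibasic amino acids is made of the light chain Slc7a9 (chromosome 7, 35448796 to 35466036) and the heavy chain Slc3a1 (chromosome 17, 85028376 to 85064236), and mutations of either chain cause cystinuria. Slc7a9 stood at 29.1, 41.7, 19.1, 17.4 and 25.5 TPM in WT and at 69.3, 39.8, 47.0, 62.8 and 59.5 TPM in cKO animals. WT replicate 2 passed cKO replicate 2 in this unit, whereas in CPM the genotypes stood apart. Slc7a9 rose by 1.21 (SE 0.260, adjusted p = 0.00854), from 32.4 ± 13.1 to 74.6 ± 13.7 CPM.

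Slc3a1 had 35.2, 40.2, 26.2, 22.9 and 37.6 TPM in WT and 62.9, 54.2, 46.4, 72.6 and 71.4 TPM in cKO animals. All cKO animals exceeded all WT animals, and the WT animals lay closer together, relative to their mean, than for the other apical carriers. The heavy chain rose by 1.00 (SE 0.192, adjusted p = 0.00464), from 55.2 ± 15.3 to 110 ± 18.4 CPM. Prepl, which overlaps Slc3a1 on the opposite strand, was at 0.01 (adjusted p = 0.920), and the strand setting of the counting is not given in the sources used here.

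At the basolateral membrane, Slc7a7 and Slc7a8 are light chains that pair with the heavy chain Slc3a2. Slc7a7 (chromosome 14, 54369442 to 54417780) exports dibasic amino acids in exchange for neutral ones, and its loss causes lysinuric protein intolerance. Its TPM values were 40.9, 54.2, 29.3, 26.3 and 34.9 in WT and 79.4, 62.2, 58.0, 79.2 and 88.4 in cKO animals. No cKO animal reached down to the WT range. Slc7a7 rose by 1.07 (SE 0.210, adjusted p = 0.00549), from 55.8 ± 18.04 to 117 ± 20.1 CPM, while Oxa1l, which overlaps it on the opposite strand, was at 0.09 (adjusted p = 0.198).

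Slc7a8 exchanges neutral amino acids (chromosome 14, 54722209 to 54781946). It stood at 60.1, 63.9, 50.5, 46.6 and 41.9 TPM in WT and at 75.1, 61.8, 54.9, 87.0 and 90.5 TPM in cKO animals. The genotypes overlapped, since cKO replicates 2 and 3 lay within the WT range. Slc7a8 rose by 0.58 (SE 0.149, adjusted p = 0.0141), from 162 ± 29.0 to 243 ± 47.8 CPM, the smallest change among the absorptive transporters. Without WT replicates 3 and 4 together, a choice made after seeing the data, its log2 fold change was 0.48 with an adjusted p of 0.0966, and that of Slc6a19 was 1.43 with an adjusted p of 0.0511. These are the WT libraries farthest from the cKO libraries, so smaller differences follow in part from that choice.

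Slc3a2, the CD98 heavy chain, serves both sides of the contrast, because it carries Slc7a7 and Slc7a8 in enterocytes and Slc7a5 in growing cells (chromosome 19, 8706882 to 8723369). It had 102, 101, 77.4, 87.3 and 89.4 TPM in WT and 122, 119, 102, 155 and 147 TPM in cKO animals. The lowest cKO and the highest WT animal were nearly equal, at 101.87 and 101.52 TPM. Slc3a2 rose by 0.51 (SE 0.123, adjusted p = 0.0105), from 101 ± 15.2 to 144 ± 22.5 CPM. Without WT replicates 3 and 4, the WT libraries farthest from the cKO libraries, the log2 fold change was 0.38 with an adjusted p of 0.0722.

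Slc7a5 imports leucine and other large neutral amino acids in exchange for glutamine (chromosome 8, 121881150 to 121907694). Its level was 12.4, 13.4, 17.0, 28.4 and 19.4 TPM in WT and 9.21, 8.55, 10.8, 10.6 and 8.72 TPM in cKO animals. All cKO animals lay below all WT animals, and WT replicate 4, the lowest WT animal for Slc15a1, Slc6a19 and Slc6a20a, was the highest here. Slc7a5 fell by 0.81 (SE 0.184, adjusted p = 0.00896), from 47.3 ± 14.9 to 26.97 ± 2.32 CPM. Gm20388, which overlaps Slc7a5 on the opposite strand, was at −0.06 (adjusted p = 0.681).

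Slc1a5 takes up glutamine and other neutral amino acids with sodium (chromosome 7, 16781340 to 16798274). It stood at 56.7, 54.5, 58.7, 93.0 and 45.3 TPM in WT and at 34.8, 33.0, 34.4, 39.0 and 33.8 TPM in cKO animals. The cKO animals formed a narrow band below the WT range, and WT replicate 4 stood well above the other WT animals. Slc1a5 fell by 0.64 (SE 0.124, adjusted p = 0.00402), from 105 ± 23.4 to 67.6 ± 3.61 CPM. Leaving out each animal in turn gave −0.69 to −0.50 for Slc1a5 and −0.92 to −0.63 for Slc7a5, past the threshold each time.

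In WT crypts the order of mean TPM was Slc3a2 (91.3 ± 10.1), Slc1a5 (61.6 ± 18.3), Slc7a8 (52.6 ± 9.20), Slc7a7 (37.1 ± 11.1), Slc3a1 (32.4 ± 7.49), Slc7a9 (26.5 ± 9.68), Slc6a20a (18.2 ± 11.01), Slc7a5 (18.1 ± 6.42), Slc6a19 (17.1 ± 10.6) and Slc15a1 (16.7 ± 12.3). The ranges over animals overlapped between all neighbours in this order. In cKO crypts Slc3a2 stayed first at 129 ± 21.7 TPM, followed by Slc7a8 (73.9 ± 15.5), Slc7a7 (73.4 ± 12.8), Slc15a1 (64.9 ± 21.7), Slc3a1 (61.5 ± 11.2), Slc6a19 (59.8 ± 22.5), Slc6a20a (57.9 ± 15.4), Slc7a9 (55.7 ± 12.0), Slc1a5 (35.0 ± 2.34) and Slc7a5 (9.58 ± 1.06). Slc1a5 thus went from rank 2 to rank 9 and Slc15a1 from rank 10 to rank 4. In the cKO order Slc3a2 stood clear of Slc7a8, Slc7a9 of Slc1a5 and Slc1a5 of Slc7a5, while the other neighbours overlapped. The 7 absorptive transporters summed to 201 ± 67.3 TPM in WT and 447 ± 103 TPM in cKO crypts, and the 3 growth-linked ones to 171 ± 22.6 and 174 ± 23.2 TPM, a sum in which the higher Slc3a2 offset the lower Slc7a5 and Slc1a5.

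Ratios within a library compare transporters that share a partner or a substrate. They do not depend on how libraries are scaled, but they do depend on the effective length estimated for each gene in each library. The light chain Slc7a9 stood to its heavy chain Slc3a1 at 0.806 ± 0.140 in WT and 0.909 ± 0.147 in cKO crypts, with overlap. Slc7a8 stood to Slc3a2 at 0.576 ± 0.0752 and 0.570 ± 0.0436, also with overlap. The mean log2 ratio of these pairs differed by 0.18 and −0.01 between the genotypes, while each gene of the pairs rose. Slc7a7 against Slc3a2 was 0.402 ± 0.0853 in WT and 0.571 ± 0.0573 in cKO crypts, with WT replicate 2 (0.537) above cKO replicates 2 (0.523) and 4 (0.511). This overlap rests in part on the effective length of Slc3a2, which was 1521 bases in WT replicate 2 and 1269 to 1475 bases in cKO libraries.

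The ratio of Slc7a5 to Slc3a2 was 0.122, 0.132, 0.220, 0.326 and 0.217 in WT and 0.0754, 0.0719, 0.106, 0.0684 and 0.0593 in cKO animals. Every cKO animal lay below every WT animal, and the mean log2 ratio differed by −1.35, or between −1.51 and −1.16 when each animal was left out. The ratio of Slc6a19 to Slc1a5, both carriers of neutral amino acids, was 0.431, 0.585, 0.200, 0.0688 and 0.245 in WT and 1.43, 1.46, 1.08, 2.41 and 2.06 in cKO animals. It was below 1 in all 5 WT animals and above 1 in all 5 cKO animals, a mean difference of 2.74 on the log2 scale. As both ratios join genes whose changes are given above, no test was made of them.

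**Figure D3:**
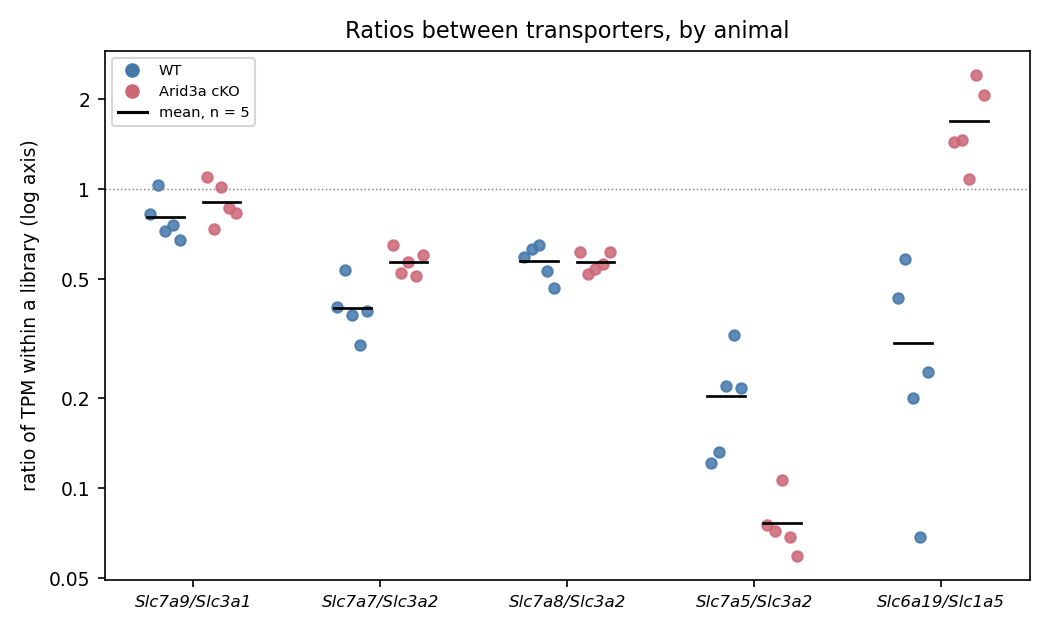
Ratio of TPM between transporters within each library (log axis), with the mean of 5 animals per genotype as a line. Slc7a9 to Slc3a1 and Slc7a8 to Slc3a2 overlap between genotypes, Slc7a5 to Slc3a2 is lower in all 5 cKO animals, and Slc6a19 to Slc1a5 lies below 1 in WT and above 1 in cKO animals.

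Per animal, the mean log2 TPM of the 7 absorptive transporters was 5.06, 5.34, 4.28, 3.78 and 4.42 in WT and 5.96, 5.68, 5.54, 6.30 and 6.27 in cKO animals. The mean of the 3 growth-linked transporters was 5.37, 5.39, 5.41, 5.94 and 5.42 in WT and 5.09, 5.01, 5.07, 5.32 and 5.14 in cKO animals. On both measures the genotypes stood apart, and WT replicate 4 had at once the lowest absorptive and the highest growth-linked mean. Their difference, absorptive less growth-linked, was −0.93 ± 0.825 in WT and 0.82 ± 0.259 in cKO crypts, negative in 5 of 5 WT and positive in 5 of 5 cKO animals.

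**Figure D4:**
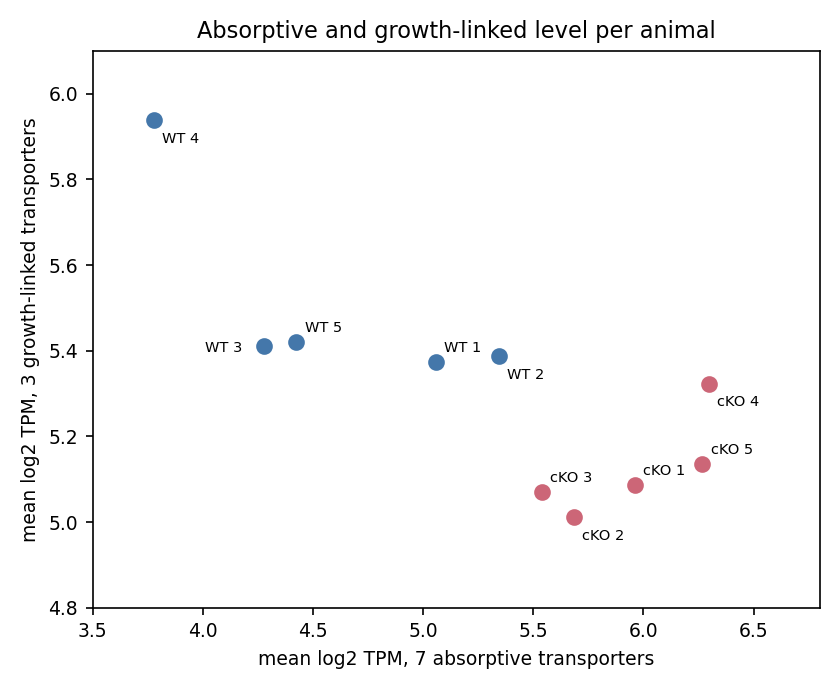
Each point is 1 animal, placed by the mean log2 TPM of the 7 absorptive (horizontal axis) and of the 3 growth-linked transporters (vertical axis). WT animals (blue) spread from 3.78 to 5.34 on the horizontal axis and cKO animals (red) from 5.54 to 6.30, with all cKO points lower on the vertical axis than all WT points.

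The level of enterocyte markers moved with these values. All 8 markers of enterocytes (Vil1, Alpi, Fabp2, Fabp1, Sis, Krt20, Apoa1 and Apoa4) rose in cKO crypts, at a median of 1.68 on the log2 scale, and their summed level was 4553, 6698, 2422, 1711 and 3725 CPM in WT and 11299, 11106, 8155, 14415 and 14792 CPM in cKO animals. WT replicates 2 and 4, at the 2 ends of the WT range of these markers, were also at the ends of the WT range of the absorptive mean. Relative to the mean log2 TPM of the 8 markers in the same library, the absorptive mean stood at −3.77 ± 0.207 in WT and −4.07 ± 0.0915 in cKO crypts, and the genotypes overlapped. Whether the number of enterocytes or their state changed was not tested.

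Measured against those markers, the absorptive transporters did not all lie on one side. Slc15a1 (−4.63 ± 0.400 in WT, −4.07 ± 0.191 in cKO), Slc6a19 (−4.48 ± 0.310, −4.19 ± 0.225) and Slc6a20a (−4.40 ± 0.441, −4.20 ± 0.197) had higher means in cKO crypts, with overlap. The exchanger chains Slc7a9 and Slc3a1 were lower by 0.56 and 0.74 on average, with overlap, and the basolateral Slc7a7 (−3.18 ± 0.379, −3.84 ± 0.167) and Slc7a8 (−2.65 ± 0.629, −3.84 ± 0.0969) were lower without overlap. In the fit over all genes with libraries scaled to these markers, Slc15a1 was at 0.53 (adjusted p = 0.229), Slc6a19 at 0.26 (adjusted p = 0.555) and Slc6a20a at 0.21 (adjusted p = 0.637). In that fit Slc7a9 was at −0.50 (adjusted p = 0.258), Slc3a1 at −0.80 (adjusted p = 0.0704), Slc7a7 at −0.69 (adjusted p = 0.115), Slc7a8 at −1.30 (adjusted p = 0.00322) and Slc3a2 at −1.38 (adjusted p = 0.00203). That scaling moved the median of all genes tested to −1.97. All 8 of these transporters stood above the median gene, and Slc7a5 and Slc1a5 below it. Because the scaling applies 1 factor per library to every gene, this order was largely set by the fit with TMM scaling. It is no separate support. The 8 markers did not rise alike, at 0.795 to 2.06 with TMM scaling. Scaled to themselves, 3 of them were negative, down to −1.07, and 1 was called lower. Signs in that fit are thus relative to this set of markers.

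Markers of other cells were read in the fit with TMM scaling, where 15.6% of all genes tested were higher and 12.7% lower. Of 6 stem and progenitor markers 3 were lower (Ascl2, Smoc2 and Olfm4), while Lgr5 (−0.17) and Mki67 (−0.19) did not pass, and of 4 Paneth cell markers 3 were lower. The 6 pan-epithelial genes had a median of 0.04 and adjusted p values of 0.0618 and above, 1 of 5 goblet markers was lower, and 2 of 6 enteroendocrine and 3 of 4 tuft markers tested were higher. Of 10 immune markers 1 was lower (Jchain, of plasma cells), with a summed level of 99.0 to 184 CPM in WT and 44.1 to 163 CPM in cKO animals, 2 of 7 stromal and endothelial markers tested were lower, and the 3 erythroid markers tested had adjusted p values of 0.0701 and above. Under scaling by library size only the enteroendocrine and tuft calls were lost, and 5 of the 6 stem and progenitor markers, 1 pan-epithelial, 1 enteroendocrine, 2 immune and 1 erythroid marker were called lower. Scaled to the pan-epithelial genes, 2 stem and progenitor, 1 pan-epithelial and 1 stromal or endothelial marker were lower, and 1 enteroendocrine, 1 tuft and 1 goblet marker were higher. The part of these cells in the fall of Slc7a5 and Slc1a5 was not tested.

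Partner proteins of apical transport rose with the carriers. All 7 of those tested were higher with the deletion, where 15.6% of all genes tested were, and their median was 1.32. Anpep, the brush border peptidase that releases amino acids from peptides, went from 812 ± 502 to 2031 ± 562 CPM (1.32, adjusted p = 0.0376). Pdzk1, a scaffold of apical carriers, rose by 1.86, its relative Slc9a3r1 by 1.10, and Slc9a3, the sodium-proton exchanger that keeps the proton gradient for peptide uptake, by 1.39. Atp1b1, a subunit of the sodium pump that maintains the gradient for sodium-coupled uptake, rose by 0.69. With libraries scaled to the enterocyte markers, Anpep (−0.29), Slc9a3 (−0.23), Slc9a3r1 (−0.64) and Atp1b1 (−1.20) turned negative, the last of them past the threshold, while Pdzk1 stayed above 0 (0.37) without passing it.

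Other amino acid and peptide transporters did not share one direction. Over all genes tested, 15.6% rose and 12.7% fell (10.5% and 27.4% with library size alone, 12.5% and 13.3% scaled to pan-epithelial genes). Of 43 listed, 28 were tested. Of these 6 rose and 6 fell, with a median of −0.12 (4 and 7 with library size alone, 4 and 6 scaled to pan-epithelial genes). Among those that rose, Slc43a2, a carrier of branched-chain and other large neutral amino acids, went from 78.5 ± 50.04 to 207 ± 36.2 CPM (1.40, adjusted p = 0.0280), and Slc16a10, the basolateral carrier of aromatic amino acids, from 82.6 ± 8.54 to 132 ± 28.4 CPM (0.68, adjusted p = 0.00454). Slc7a15 (1.81, adjusted p = 0.0256), Slc6a20b and the scarce Slc38a11 (0.82, adjusted p = 0.0457) rose too, and Slc38a9, an arginine sensor of the lysosome, rose by 0.39. Scaled to the enterocyte markers, Slc7a15 (0.19) and Slc6a20b (0.19) stayed above 0 but missed the threshold, and Slc43a2 (−0.20), Slc16a10 (−1.24), Slc38a11 (−1.15) and Slc38a9 (−1.53) turned negative, where the median of all genes was −1.97.

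Among those that fell, Slc1a4, a carrier of alanine, serine and cysteine, went from 20.2 ± 10.1 to 10.3 ± 1.64 CPM (−0.97, adjusted p = 0.0473), and Slc7a1, the general carrier of arginine and lysine, from 163 ± 31.6 to 124 ± 10.1 CPM (−0.39, adjusted p = 0.0287). Slc7a6, which also pairs with Slc3a2, fell by 0.57 (adjusted p = 0.0238), and Slc15a3, a lysosomal peptide carrier of immune cells, fell by 1.72 at a low level (1.06 to 0.320 CPM). Slc1a3, a glutamate carrier, fell by 0.40, and Slc15a4, a lysosomal carrier of histidine and peptides, by 0.35. Of the abundant carriers that did not pass, Slc6a6 (taurine) was at 0.07, Slc1a1 (glutamate and aspartate) at −0.08, Slc38a2 at −0.16 and Slc36a1, a proton-coupled carrier of small amino acids, at 0.61 (adjusted p = 0.137).

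**Figure D5:**
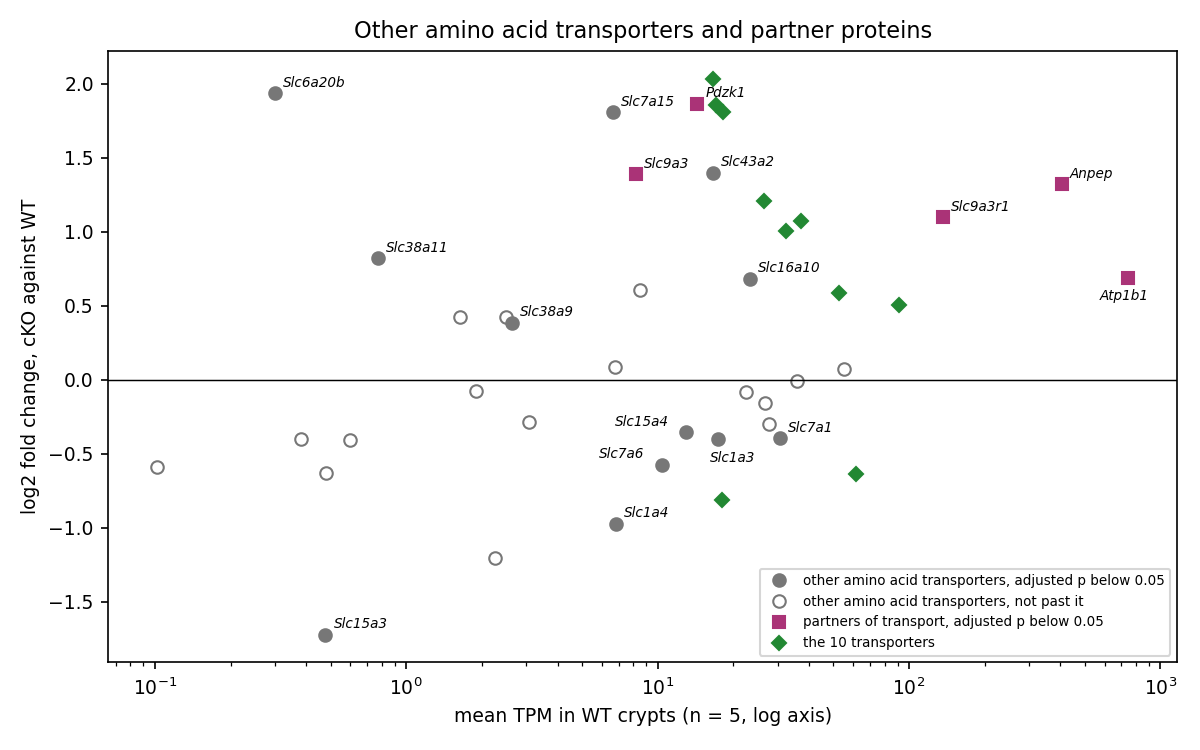
Log2 fold change, cKO against WT, against mean TPM in WT crypts (log axis) for other amino acid and peptide transporters (circles, filled where the adjusted p is below 0.05), partner proteins (squares) and the 10 transporters (diamonds). The 5 partners shown lie between 0.69 and 1.86, while the 28 other transporters lie on both sides of 0, with 6 filled above and 6 below, and 4 of the 5 partners shown turn negative under scaling to enterocyte markers.

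Enzymes of amino acid metabolism and the sensing of amino acids were also mixed. Over all genes tested, 15.6% rose and 12.7% fell, or 10.5% and 27.4% with library size alone. Of 26 metabolic genes tested 6 rose and 7 fell, with a median of −0.18 (5 and 13 with library size alone, which moved the median of all genes to −0.16). Those that rose included Gpt, which makes alanine (1.46, adjusted p = 0.0156), Arg2, mitochondrial arginase (1.08, from 272 ± 79.7 to 576 ± 59.98 CPM, adjusted p = 0.00232), Got1 of the aspartate shuttle (0.59) and Sat1 of polyamine breakdown (0.54). The proline-synthesis enzyme Pycr1 (−0.73), the glutaminase Gls2 (−0.57), Hpd of tyrosine breakdown (−0.40) and the citrulline-using Ass1 (−0.38) fell. Scaled to the enterocyte markers, all 26 were negative, from −2.69 to −0.156, where the median of all genes was −1.97.

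The lists below stand beside 15.6% of all genes tested that rose and 12.7% that fell (10.5% and 27.4% under library size only). Of 18 tested genes of the ATF4 response, which are Atf4 and genes that it induces when amino acids are short, 2 rose and 6 fell. Their median was −0.35 (2 rose and 11 fell under library size only). Those that fell included the serine and one-carbon enzymes Phgdh (−0.89, adjusted p = 0.00149), Mthfd2 (−0.64) and Shmt2 (−0.57), the asparagine synthetase Asns (−0.48, adjusted p = 0.00594) and the stress factor Nupr1 (−0.48). Trib3 (1.60) and Cth (0.39) rose, and Atf4 itself, with means of 167 ± 24.3 and 152 ± 12.6 CPM, did not pass (−0.13, adjusted p = 0.358). Slc7a5, Slc3a2 and Slc1a5 are known targets of the same response and were kept out of this list. Of 24 genes of mTORC1 and its amino acid sensors 5 rose, and the median was −0.01, whereas 3 rose and 4 fell under library size only. The 5 were Castor2 (1.56), Sesn1 (0.81), Rragd (0.45), Fnip1 (0.44) and Rragc (0.21), while Mtor was at 0.03 (adjusted p = 0.813). Scaled to the enterocyte markers, all 18 genes of the ATF4 list were negative, from −2.89 to −0.0131. So were all 24 of the mTORC1 list, from −2.21 to −0.218, where the median of all genes was −1.97.

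The genes with the profile most like each transporter were sought among 9207 genes with a mean of at least 10 CPM, as the smallest mean absolute difference of centred log2 CPM over the 10 libraries. Nearest to Slc15a1 were Pdzk1 (0.104) and 2010106E10Rik (0.120). Nearest to Slc6a19 were Gm11127 (0.118), Treh (0.126) and Btnl7-ps (0.129). For Slc7a5 the nearest were Rrp1b (0.0896), Dctd (0.0912) and Cdc6 (0.113). These distances are small beside the range of Slc15a1 itself, which spanned 4.46 log2 units over the 10 libraries, of Slc6a19 (3.89) and of Slc7a5 (1.44), and they describe these animals only.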

How the data were processed

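Crypt RNA of 5 WT and 5 Arid3a cKO mice was sequenced, 1 library per animal, and grouped by the genotype in the labels. The authors ran nf-core/rnaseq 3.0, with alignment by STAR and quantification by RSEM, against Ensembl release 95 of GRCm38. For each library they deposited the expected count, the TPM, the FPKM (not used here) and the effective length of each gene, without scaling of the expected counts between libraries. The deposited TPM values were used for levels and ratios.

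Expected counts were rounded, and edgeR 4.0.16 (R 4.3.3) was applied with filterByExpr (minimum count 10, minimum total 15), TMM scaling and the robust quasi-likelihood test with Benjamini-Hochberg adjustment over all 14719 genes at a threshold of 0.05. CPM are on TMM-scaled library sizes, and the SE is that of the log2 fold change. The study's own model (DESeq2) had a further term for time, which has 1 level here. Gene symbols were found for 54723 of 54838 identifiers, and genes without one held 0.0193% of the counts. Positions are from GENCODE of the same assembly (Ensembl release 96). Near-identical and overlapping genes can share reads. The script was tested on simulated data.

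The transporters and gene lists were chosen with earlier results of these data known. Named genes are Arid3a, the 10 transporters, members of the fixed lists (those called with the largest change, up to 4 per direction, and those whose role bears on a transporter) and, for Slc15a1, Slc6a19 and Slc7a5, the 3 genes of nearest profile. A few genes covered by this rule are left unreported, while counts over lists include them. The alternatives tried were the Wald test of DESeq2 1.42.0, size factors of the RLE type, library size only, scaling to pan-epithelial or enterocyte genes, other filters, unrounded counts, an effective length offset, limma 3.58.1 (voom, and on log2 of TPM with a pseudocount of 0.1 or 1), the replicate number as a block, and leaving out each animal, or WT replicates 3 and 4 together (added after seeing the data). Samples are separate animals, so p-values measure the spread between animals.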

Additional observations from a re-analysis of the deposited data

Results flagged for a closer look

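Among 52 sets of 5 animals checked for a lone extreme value, 1 stood out: Slc1a5, the glutamine carrier, reached 93 TPM in WT replicate 4, where the nearest of the other WT animals had 58.67 TPM, a gap of 0.72 of the range of the group. Chance alone gives such a value in about 1 of 20 sets, so 1 of 52 is no more than chance gives. In CPM the same set was not flagged, with 143 CPM in WT replicate 4 and 112 CPM in WT replicate 3. WT replicate 4 had the lowest absorptive and the highest Slc7a5 level of the WT group. Slc1a5 was past the threshold without that animal, at −0.50.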

How the results depend on the processing

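Slc7a5 and Slc1a5 kept direction and call under all 24 alternatives. All 7 absorptive transporters stayed called except under 5 alternatives given here, and leaving out each animal left 6 or 7, with Slc15a1 between 1.79 and 2.51 and lost without cKO replicate 5 (1.86, adjusted p = 0.0540). Slc15a1 missed the threshold with no filter on low counts (2.03, adjusted p = 0.0560, edgeR), a setting that adjusts over more genes. Genes called lower over the whole table numbered 1131 (without WT replicate 4) to 2112 when each animal was left out. Without WT replicates 3 and 4 together, 2142 genes were called (1472 higher, 670 lower), Slc6a19 was at 1.43 (adjusted p = 0.0511), Slc7a8 at 0.48 (0.0966) and Slc3a2 at 0.38 (0.0722), leaving 5 absorptive and 0 growth-linked transporters called higher (1 at an unadjusted p under 0.05). This setting has fewer samples and leaves out the WT libraries farthest from the cKO libraries, so smaller differences follow in part from that choice.

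Same-numbered animals showed no sign of varying together (correlations of −0.157 to 0.131 over 5 pairs, against −0.24 to 0.298 over the 20 other pairs). So few pairs cannot exclude a shared factor behind the number, and what the number stands for is not given. With the replicate block 1188 genes were lower and 1860 higher, 4 absorptive transporters were called, and Slc15a1 (2.30, adjusted p = 0.0574), Slc6a19 (2.01, 0.0660) and Slc6a20a (1.98, 0.0594) were not.

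Scaling to enterocyte markers gave 13995 calls (13 higher, 13982 lower) and a median of −1.97 over all genes. There 0 absorptive transporters were called higher and 1 lower, and 0 growth-linked ones higher (edgeR; 0 of either at an unadjusted p under 0.05). Slc15a1 was at 0.53, Slc6a19 at 0.26, Slc6a20a at 0.21, Slc7a9 at −0.50, Slc3a1 at −0.80, Slc7a7 at −0.69, Slc7a8 at −1.30 and Slc3a2 at −1.38. Scaling by library size only moved the split to 1544 higher and 4030 lower (median −0.16), and limma on TPM to 1399 and 2742 (pseudocount 0.1) or 1411 and 2760 (pseudocount 1), against 2298 and 1869, with the 10 transporter calls kept.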
